A study of Mus musculus with 24 samples.

Results

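The genes described here are 42 interferon-induced antiviral genes, listed by name after earlier results of these arrays had shown that such genes varied between them. Of the 42, 38 had a probe whose transcript accession is paired with their symbol in RefSeq, out of 32451 genes or transcripts on the array, and all 38 were well above background on every array used. Mx1, Mx2, Ddx60 and Ifi205 had no probe named in this way and were not analysed here. RNA came from CD11b+ cells, the integrin-bearing myeloid cells of spleen and bone marrow, taken from wild-type (WT) mice, from HDC-KO mice, which lack the histamine-forming enzyme histidine decarboxylase, and from STAT6-KO mice, which lack the transcription factor STAT6. The mice were male by the labels, 10 weeks old and of Balb/C background by the study's methods, and were either controls or had a myocardial infarction (MI) 1, 2 or 4 weeks earlier. Each combination of genotype, tissue and time was 1 one-colour Agilent array of cells pooled from 5 mice, so the spread between pools of a condition could not be measured. Of the 24 arrays, 22 were complete and were used, and 2 were left out (the control array of HDC-KO spleen, and the 1-week array of STAT6-KO bone marrow) because their tables break off after a few spots. A value below is the log2 processed signal minus the 75th percentile of its array, so 0 is the level of that percentile and a difference of 1 is 2-fold.

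Interferons are secreted proteins that cells release on sensing viral or other foreign nucleic acid. Type I and type III interferons act through receptor-bound Janus kinases and a complex of STAT factors with IRF9, which binds the interferon-stimulated response element in promoters, while interferon-gamma acts through STAT dimers that bind a palindromic site. The induced proteins bind or degrade foreign RNA, block virus entry and exit, alter nucleotide pools, conjugate ISG15 and raise antigen processing, and myeloid cells of spleen and marrow are among the cells known to express them strongly.

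Promoter sequences show what many of these genes share that the arrays did not measure. The reference windows of RefSeq (build GRCm38.p6) run from 250 bases before to 50 bases after the start of transcription and were held for 32 of the 42 genes. A pair of GAAA runs parted by any 2 bases, a core of the interferon-stimulated response element, occurred on either strand in the windows of 15 of the 32 genes, against 3.99% of the 27025 genes with a window. The genes with it were Bst2, Cxcl10, Ddx60, Eif2ak2, Ifi205, Ifih1, Ifit1, Ifit3, Ifitm3, Isg15, Rsad2, Slfn5, Slfn8, Trim21 and Trim30a. The letters TTCNNNGAA, the palindrome of the STAT dimer site, occurred in 8 of the 32, against 9.55% of all genes, and those were Adar, Bst2, Eif2ak2, Ifi35, Ifit2, Ifitm3, Isg20 and Psmb8. The motifs can overlap, and Bst2, Eif2ak2 and Ifitm3 held both. A match is a description of the letters and not a site of binding, and a window without one says only that these letters are not in it.

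Below are the windows of 4 members with wide ranges over the arrays and of Trim25, the member with the narrowest, each from 5′ to 3′ on its gene's strand with every match to the paired GAAA runs, or to the reverse complement, in capitals.
Isg15: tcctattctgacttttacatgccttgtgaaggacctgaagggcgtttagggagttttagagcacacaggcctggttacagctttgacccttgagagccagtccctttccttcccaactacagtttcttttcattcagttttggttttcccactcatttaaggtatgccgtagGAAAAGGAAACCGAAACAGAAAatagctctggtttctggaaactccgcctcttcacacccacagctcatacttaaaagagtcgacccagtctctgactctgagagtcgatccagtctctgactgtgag
Ifit3: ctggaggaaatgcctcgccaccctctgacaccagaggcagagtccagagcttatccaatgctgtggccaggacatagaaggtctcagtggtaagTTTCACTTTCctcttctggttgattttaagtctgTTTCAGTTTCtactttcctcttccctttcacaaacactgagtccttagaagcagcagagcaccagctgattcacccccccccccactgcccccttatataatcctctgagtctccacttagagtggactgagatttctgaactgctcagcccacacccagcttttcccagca
Rsad2: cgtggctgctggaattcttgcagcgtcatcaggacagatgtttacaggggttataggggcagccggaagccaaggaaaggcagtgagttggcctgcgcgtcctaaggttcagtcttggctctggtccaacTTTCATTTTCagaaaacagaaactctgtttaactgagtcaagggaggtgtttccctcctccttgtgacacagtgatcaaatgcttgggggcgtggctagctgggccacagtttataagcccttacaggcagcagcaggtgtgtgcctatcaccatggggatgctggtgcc
Cxcl10: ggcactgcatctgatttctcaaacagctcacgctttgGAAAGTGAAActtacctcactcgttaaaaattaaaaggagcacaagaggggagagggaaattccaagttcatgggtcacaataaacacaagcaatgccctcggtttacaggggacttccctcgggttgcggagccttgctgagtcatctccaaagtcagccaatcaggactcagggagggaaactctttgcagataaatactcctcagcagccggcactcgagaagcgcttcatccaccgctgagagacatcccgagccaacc
Trim25: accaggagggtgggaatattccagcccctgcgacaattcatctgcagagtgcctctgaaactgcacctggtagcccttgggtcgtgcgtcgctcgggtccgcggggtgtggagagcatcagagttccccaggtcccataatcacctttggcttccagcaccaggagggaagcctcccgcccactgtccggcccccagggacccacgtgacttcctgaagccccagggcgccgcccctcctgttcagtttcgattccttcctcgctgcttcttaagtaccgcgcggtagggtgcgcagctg

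Isg15 (chr4:156200769-156201068, minus strand) held 3 overlapping matches between 78 and 57 bases before the start. Ifit3 (chr19:34583279-34583578, plus strand) held 2 matches, which began 156 and 122 bases before the start. Rsad2 (chr12:26456403-26456702, minus strand) held 1 that began 120 bases before it, and Cxcl10 (chr5:92348840-92349139, minus strand) 1 that began 213 bases before it. Trim25 (chr11:88999153-88999452, plus strand) held none. The windows shown are examples, and matches did not follow the range throughout the list. Ifit2 (range 4.93) and Ifi44 (4.12) held none, while Trim21 (1.96) and Trim30a (2.10) held matches. Ifit1, Ifit2 and Ifit3 lie together on chromosome 19, and the windows of Rsad2 and Cmpk2 lie near each other on opposite strands of chromosome 12.

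The targeted genes and the sex labels were read first. Hdc lay between 1.67 and 2.78 on the 7 HDC-KO arrays and between 4.12 and 5.51 on all others. Stat6 was read by 3 probes, and whether any lies in the deleted part is not known here. On 6 of the 7 STAT6-KO arrays they lay between 1.76 and 2.44, -1.72 and -0.27, and -1.11 and -0.29, and on the WT and HDC-KO arrays between 2.24 and 3.70, -0.43 and 1.99, and -0.22 and 1.29, so only the third probe separated these arrays. The STAT6-KO spleen array of 4 weeks, by its label, read 2.12, 0.20 and 0.73, within the WT and HDC-KO range on the second and the third probe. A probe of Xist, the RNA that coats a silenced X, rose well above background on 9 arrays although all mice were labelled male. These were the 7 HDC-KO arrays and both STAT6-KO control arrays, and no WT array. Differences of HDC-KO from WT, and of STAT6-KO from WT in control cells, therefore cannot be told apart from the Xist signal. The late STAT6-KO differences are given both against control and against 2 weeks for the same reason. Of 8 defining markers of CD11b+ cells, 7 had a probe and were well above background on every array, with Itgam, the CD11b gene itself, at 3.92 in WT spleen control and 5.10 in WT bone marrow control cells. The 6 B cell, 5 T cell and 6 NK cell genes were also well above background on every array, so the pools were not shown to be free of these cells. Each of the 6 slides held 1 genotype of 1 tissue with the 4 times at its 4 positions. Genotype therefore cannot be told apart from slide within a tissue, nor time from position. Tissue differences lie between slides as well, with spleen on slides 1 to 3 and bone marrow on slides 4 to 6.

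Most of the 38 members varied together over the arrays, and the order of the arrays was not that of time alone. For each array the median over the members was taken after subtracting from every member its own median over the 22 arrays. This level was highest in WT bone marrow at 1 week after MI (1.42) and WT spleen at 1 week (1.33), followed by STAT6-KO spleen at 4 weeks (1.06). WT spleen and bone marrow at 2 weeks stood at 0.84 and 0.70, STAT6-KO bone marrow at 4 weeks at 0.60 and WT spleen at 4 weeks at 0.48. All other arrays lay between -0.92 and 0.19. The 7 HDC-KO arrays were spread over only -0.40 to 0.19, in neither tissue with a high array. The lowest 4 were STAT6-KO bone marrow control (-0.92), STAT6-KO bone marrow at 2 weeks (-0.72), STAT6-KO spleen control (-0.61) and WT bone marrow control (-0.45). Of the 38 members, 26 had their highest value in WT bone marrow at 1 week, 9 in WT spleen at 1 week and 3 in STAT6-KO spleen at 4 weeks, and 20 had their lowest in STAT6-KO bone marrow control. The median over all genes well above background on every array, treated in the same way, stayed between -0.18 and 0.17.

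**Figure D1:**
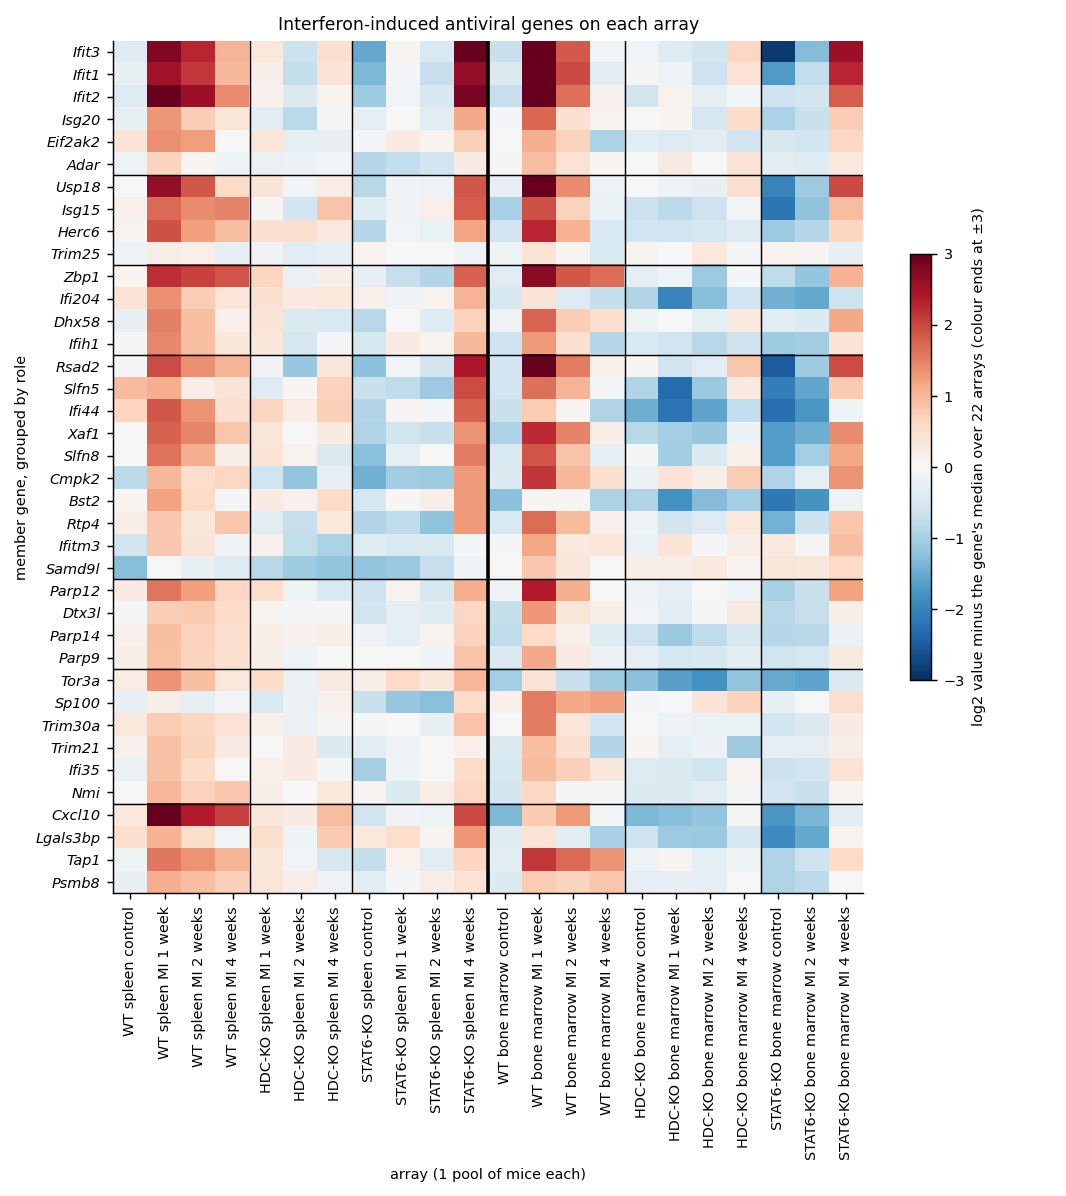
Each row is 1 of the 38 members, grouped by role and ordered by range, and each column 1 of the 22 arrays, with spleen left of the thick line and bone marrow right of it; colour is the log2 value minus the gene's own median over the arrays and ends at -3 and 3. The red columns are WT at 1 and 2 weeks after MI in both tissues and STAT6-KO at 4 weeks in both, and 20 of the 38 members are lowest in STAT6-KO bone marrow control.

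**Figure D2:**
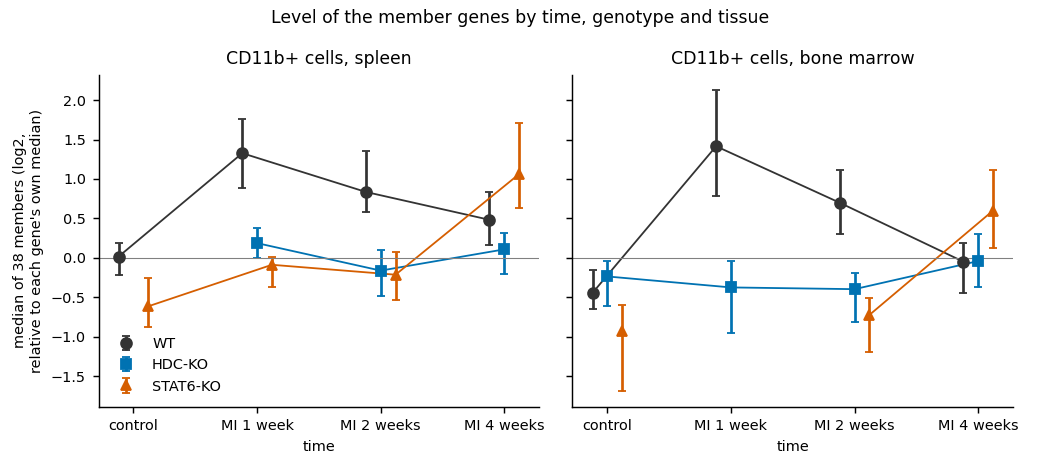
Median of the 38 members on each array (log2, relative to each gene's own median over 22 arrays) by time, with bars from the lower to the upper quartile of the members, which are not replicates. WT peaked at 1 week in spleen (1.33) and bone marrow (1.42), HDC-KO stayed between -0.40 and 0.19, and STAT6-KO was highest at 4 weeks (1.06 and 0.60).

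The order of conditions was similar but not the same in the tissues, since STAT6-KO at 4 weeks was above WT at 2 weeks in spleen (1.06 and 0.84) and below it in bone marrow (0.60 and 0.70). Over the 10 conditions with both arrays, the level in spleen and that in bone marrow had a Pearson correlation of 0.96, which is given as a description since the arrays share slides and conditions. Among the members themselves, the correlation of each with the median of the others over the 22 arrays had a median of 0.86. It was at least 0.9 for 14 members, led by Xaf1 (0.97), Ifit3 (0.97), Usp18 (0.97) and Herc6 (0.96), and at least 0.8 for 27. It was lowest for Trim25 (0.13), Samd9l (0.20), Sp100 (0.43) and Ifitm3 (0.50), so these did not follow the list. Of 13 members with a second probe, 9 had probes that correlated at 0.8 or more, with Isg15 highest (0.98) and Tor3a lowest (0.39).

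Values of the members are given by role, beginning with those that bind or act on RNA. Ifit3 and Ifit1 belong to the tetratricopeptide family that binds viral RNA and limits its translation. On the WT arrays Ifit3 read 1.92 in spleen control cells and 5.09, 4.59 and 3.33 at 1, 2 and 4 weeks after MI, with 1.64, 5.86, 4.15 and 2.22 at the same points in bone marrow. HDC-KO cells read 2.63, 1.66 and 2.81 in spleen at 1, 2 and 4 weeks and 2.22, 1.94, 1.75 and 2.93 in bone marrow from control to 4 weeks, and STAT6-KO cells 0.77, 2.39, 1.85 and 5.41 in spleen from control to 4 weeks and -0.56, 1.00 and 4.86 in bone marrow at control, 2 and 4 weeks. It was 5.09 or above on 3 arrays (WT at 1 week in both tissues and STAT6-KO spleen at 4 weeks), and its range of 6.42 was the widest of all members. Ifit1 read 1.42 in spleen control cells and 4.16, 3.78 and 2.62 at 1, 2 and 4 weeks after MI, with 1.21, 5.33, 3.63 and 1.32 at the same points in bone marrow on the WT arrays. The HDC-KO values were 1.83, 0.94 and 2.04 in spleen at 1, 2 and 4 weeks and 1.68, 1.52, 1.03 and 2.08 in bone marrow from control to 4 weeks, and those of STAT6-KO cells 0.29, 1.62, 0.97 and 4.29 in spleen from control to 4 weeks and -0.05, 0.90 and 3.93 in bone marrow at control, 2 and 4 weeks. The HDC-KO values of Ifit1 stayed between 0.94 and 2.08 while those of STAT6-KO mice were 1.62 or lower before 4 weeks and 3.93 or higher at 4 weeks. Ifit2, of the same family, ranged over -2.06 to 2.87. Isg20, an exonuclease that degrades RNA, ranged over 1.95 to 4.61, and Eif2ak2, the kinase that stops translation on double-stranded RNA, over -2.12 to 0.19. Adar, which edits adenosine to inosine, had the narrowest range of the role, from 1.40 in STAT6-KO spleen control to 3.18 in WT bone marrow at 1 week.

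The ISG15 system attaches a ubiquitin-like protein to others and removes it again. Usp18, which removes ISG15 and restrains signalling at the type I receptor, read 0.83 in spleen control cells and 3.45, 2.67 and 1.38 at 1, 2 and 4 weeks after MI, with 0.57, 4.03, 2.22 and 0.65 at the same points in bone marrow in WT cells. For Usp18, HDC-KO arrays gave 1.19, 0.73 and 1.04 in spleen at 1, 2 and 4 weeks and 0.78, 0.67, 0.59 and 1.29 in bone marrow from control to 4 weeks, and STAT6-KO arrays -0.03, 0.70, 0.66 and 2.66 in spleen from control to 4 weeks and -1.20, -0.29 and 2.78 in bone marrow at control, 2 and 4 weeks. Only the WT arrays at 1 and 2 weeks and the STAT6-KO arrays at 4 weeks were above 2 for Usp18. Isg15 itself read 4.24 in spleen control cells and 5.82, 5.54 and 5.61 at 1, 2 and 4 weeks after MI, with 3.14, 6.03, 4.81 and 3.92 at the same points in bone marrow on the WT arrays. In HDC-KO cells it was 4.16, 3.54 and 4.96 in spleen at 1, 2 and 4 weeks and 3.47, 3.33, 3.49 and 4.07 in bone marrow from control to 4 weeks, and in STAT6-KO cells 3.75, 4.02, 4.26 and 5.94 in spleen from control to 4 weeks and 1.95, 2.92 and 5.03 in bone marrow at control, 2 and 4 weeks. The arrays at its ends were WT bone marrow at 1 week (6.03) and STAT6-KO bone marrow control (1.95). Herc6, an ISG15 ligase of the mouse, ranged over -1.69 to 1.69. Trim25, a ubiquitin ligase that acts on the RNA sensor RIG-I, ranged over only 2.56 to 3.43, and WT bone marrow at 4 weeks and at 1 week held its lowest and highest values.

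Among the nucleic acid sensors, Zbp1, which recognises Z-form nucleic acid, read -0.24 in spleen control cells and 1.91, 1.74 and 1.58 at 1, 2 and 4 weeks after MI, with -0.65, 2.40, 1.56 and 1.37 at the same points in bone marrow in WT cells. HDC-KO cells read 0.33, -0.50 and -0.12 in spleen at 1, 2 and 4 weeks and -0.59, -0.46, -1.40 and -0.37 in bone marrow from control to 4 weeks, and STAT6-KO cells -0.55, -1.0, -1.18 and 1.46 in spleen from control to 4 weeks and -1.07, -1.48 and 0.73 in bone marrow at control, 2 and 4 weeks. On this probe its WT spleen values at 1, 2 and 4 weeks lay close together, while a second Zbp1 probe read 2.94, 2.47 and 1.71. Ifi204, a DNA-binding protein of the PYHIN family, read 4.08 in spleen control cells and 5.02, 4.41 and 4.02 at 1, 2 and 4 weeks after MI, with 3.18, 4.04, 3.28 and 2.95 at the same points in bone marrow on the WT arrays. The HDC-KO values were 4.12, 3.96 and 3.97 in spleen at 1, 2 and 4 weeks and 2.76, 1.68, 2.39 and 3.07 in bone marrow from control to 4 weeks, and those of STAT6-KO cells 3.82, 3.55, 3.76 and 4.69 in spleen from control to 4 weeks and 2.22, 2.12 and 3.04 in bone marrow at control, 2 and 4 weeks. All 11 spleen values of Ifi204 were 3.55 or higher, and of the 11 bone marrow values WT at 1 week (4.04) was the highest. Dhx58 and Ifih1, both helicases that sense double-stranded RNA, ranged over 1.22 to 3.79 and 1.30 to 3.82.

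Rsad2, also called viperin, makes a chain-terminating nucleotide. It read 0.76 in spleen control cells and 2.76, 2.16 and 1.81 at 1, 2 and 4 weeks after MI, with 0.22, 4.25, 2.34 and 0.93 at the same points in bone marrow in WT cells. For Rsad2, HDC-KO arrays gave 0.70, -0.34 and 1.14 in spleen at 1, 2 and 4 weeks and 0.84, 0.20, 0.45 and 1.62 in bone marrow from control to 4 weeks, and STAT6-KO arrays -0.44, 0.72, 0.24 and 3.24 in spleen from control to 4 weeks and -1.70, -0.26 and 2.75 in bone marrow at control, 2 and 4 weeks. Its range of 5.95 was second to that of Ifit3, with the same arrays at the top and at the bottom. Slfn5, a Schlafen protein, was a dim member and read -2.27 in spleen control cells and -2.12, -3.03 and -2.80 at 1, 2 and 4 weeks after MI, with -3.79, -1.56, -2.19 and -3.27 at the same points in bone marrow on the WT arrays. In HDC-KO cells it was -3.61, -3.16 and -2.52 in spleen at 1, 2 and 4 weeks and -4.12, -5.52, -4.33 and -2.91 in bone marrow from control to 4 weeks, and in STAT6-KO cells -3.89, -3.99, -4.30 and -1.26 in spleen from control to 4 weeks and -5.30, -4.78 and -2.44 in bone marrow at control, 2 and 4 weeks. Its WT spleen values at 2 and 4 weeks were below control, and its highest value was in STAT6-KO spleen at 4 weeks. Of the others in this role, Cmpk2, the nucleotide kinase encoded beside Rsad2, ranged over 0.68 to 4.26, Ifi44 over -0.51 to 3.61, Xaf1 over -0.93 to 2.99, Slfn8 over -0.70 to 2.88 and Rtp4 over 2.96 to 6.03. The membrane proteins Bst2 (tetherin, which holds budding virus) and Ifitm3 (which blocks virus entry) ranged over -0.74 to 2.70 and 3.58 to 5.69. Samd9l had the narrowest range, 2.46 to 4.53, and was lower in spleen than in bone marrow in all 10 pairs of 1 genotype and time. Its HDC-KO values were 2.56 to 2.90 in spleen and 3.81 to 4.02 in bone marrow. Its STAT6-KO values were 2.55 to 3.63 and 4.07 to 4.33, and its WT values 2.46 to 3.74 and 3.73 to 4.53.

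Parp12, a mono-ADP-ribosyltransferase, read -0.03 in spleen control cells and 1.35, 0.96 and 0.36 at 1, 2 and 4 weeks after MI, with -0.37, 2.10, 0.80 and -0.25 at the same points in bone marrow in WT cells. HDC-KO cells read 0.26, -0.41 and -0.72 in spleen at 1, 2 and 4 weeks and -0.41, -0.54, -0.29 and -0.36 in bone marrow from control to 4 weeks, and STAT6-KO cells -0.90, -0.17, -0.76 and 0.83 in spleen from control to 4 weeks and -1.24, -0.93 and 0.94 in bone marrow at control, 2 and 4 weeks. Its highest 2 values were those of WT at 1 week. Dtx3l, the ubiquitin ligase that pairs with Parp9, read 2.15 in spleen control cells and 2.93, 2.97 and 2.77 at 1, 2 and 4 weeks after MI, with 1.48, 3.49, 2.57 and 2.39 at the same points in bone marrow on the WT arrays. The HDC-KO values were 2.27, 2.13 and 2.23 in spleen at 1, 2 and 4 weeks and 2.12, 1.87, 2.16 and 2.47 in bone marrow from control to 4 weeks, and those of STAT6-KO cells 1.63, 1.93, 1.83 and 2.82 in spleen from control to 4 weeks and 1.36, 1.49 and 2.36 in bone marrow at control, 2 and 4 weeks. On this probe the HDC-KO values of Dtx3l all lay between 1.87 and 2.47, while a second Dtx3l probe spread them from -1.78 to -0.14. The second probe read -0.002, 0.10, -0.21 and 0.33 in WT spleen from control to 4 weeks. Parp14 ranged over 2.72 to 4.73 and Parp9 over 2.67 to 4.40.

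Of the TRIM, nuclear and signalling proteins, Tor3a, an interferon-inducible torsin ATPase, read 0.95 in spleen control cells and 2.08, 1.64 and 1.03 at 1, 2 and 4 weeks after MI, with -0.29, 1.12, 0.07 and -0.33 at the same points in bone marrow in WT cells. For Tor3a, HDC-KO arrays gave 1.28, 0.56 and 1.00 in spleen at 1, 2 and 4 weeks and -0.51, -0.90, -1.10 and -0.47 in bone marrow from control to 4 weeks, and STAT6-KO arrays 0.89, 1.34, 1.07 and 1.74 in spleen from control to 4 weeks and -0.78, -0.85 and 0.30 in bone marrow at control, 2 and 4 weeks. On this probe its 11 spleen values ran from 0.56 to 2.08 and its bone marrow values from -1.10 to 1.12. A second Tor3a probe read 0.43, -0.46, -0.77 and 0.33 in WT spleen from control to 4 weeks. Sp100, a protein of nuclear bodies, read -2.23 in spleen control cells and -1.82, -2.29 and -2.09 at 1, 2 and 4 weeks after MI, with -1.85, -0.44, -0.87 and -0.78 at the same points in bone marrow on the WT arrays. In HDC-KO cells it was -2.44, -2.17 and -1.87 in spleen at 1, 2 and 4 weeks and -2.04, -2.01, -1.61 and -1.33 in bone marrow from control to 4 weeks, and in STAT6-KO cells -2.68, -3.13, -3.25 and -1.42 in spleen from control to 4 weeks and -2.22, -1.99 and -1.49 in bone marrow at control, 2 and 4 weeks. Its 3 highest values were those of WT bone marrow at 1, 4 and 2 weeks, in that order, so Sp100 had not returned to its control value there at 4 weeks. Trim30a, Trim21 (the cytosolic antibody receptor), Ifi35 and Nmi ranged over 1.45 to 3.55, -0.24 to 1.72, -1.60 to 0.34 and 2.83 to 4.49.

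Cxcl10, a chemokine that draws lymphocytes, read 1.18 in spleen control cells and 4.03, 3.24 and 2.91 at 1, 2 and 4 weeks after MI, with -0.49, 1.65, 2.15 and 0.83 at the same points in bone marrow in WT cells. HDC-KO cells read 1.21, 1.12 and 1.80 in spleen at 1, 2 and 4 weeks and -0.47, -0.40, -0.31 and 0.91 in bone marrow from control to 4 weeks, and STAT6-KO cells 0.27, 0.78, 0.72 and 2.84 in spleen from control to 4 weeks and -0.88, -0.49 and 0.56 in bone marrow at control, 2 and 4 weeks. All 4 values above 2.8 were from spleen, namely WT at 1, 2 and 4 weeks and STAT6-KO at 4 weeks. Lgals3bp, a secreted galectin-binding protein, read 3.88 in spleen control cells and 4.43, 3.91 and 3.29 at 1, 2 and 4 weeks after MI, with 3.03, 3.77, 3.06 and 2.42 at the same points in bone marrow on the WT arrays. The HDC-KO values were 3.90, 3.26 and 4.16 in spleen at 1, 2 and 4 weeks and 2.76, 2.29, 2.27 and 2.87 in bone marrow from control to 4 weeks, and those of STAT6-KO cells 3.69, 3.90, 3.47 and 4.69 in spleen from control to 4 weeks and 1.5, 1.84 and 3.50 in bone marrow at control, 2 and 4 weeks. On this probe STAT6-KO arrays held both its lowest and its highest value. A second Lgals3bp probe was highest in WT spleen at 1 week (1.92), with 1.42 in STAT6-KO spleen at 4 weeks. Its lowest value was also in STAT6-KO bone marrow control (-0.88). Tap1, the transporter of antigen peptides, ranged over -1.68 to 1.34 and Psmb8, a subunit of the immunoproteasome, over 2.13 to 4.11.

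**Figure D3:**
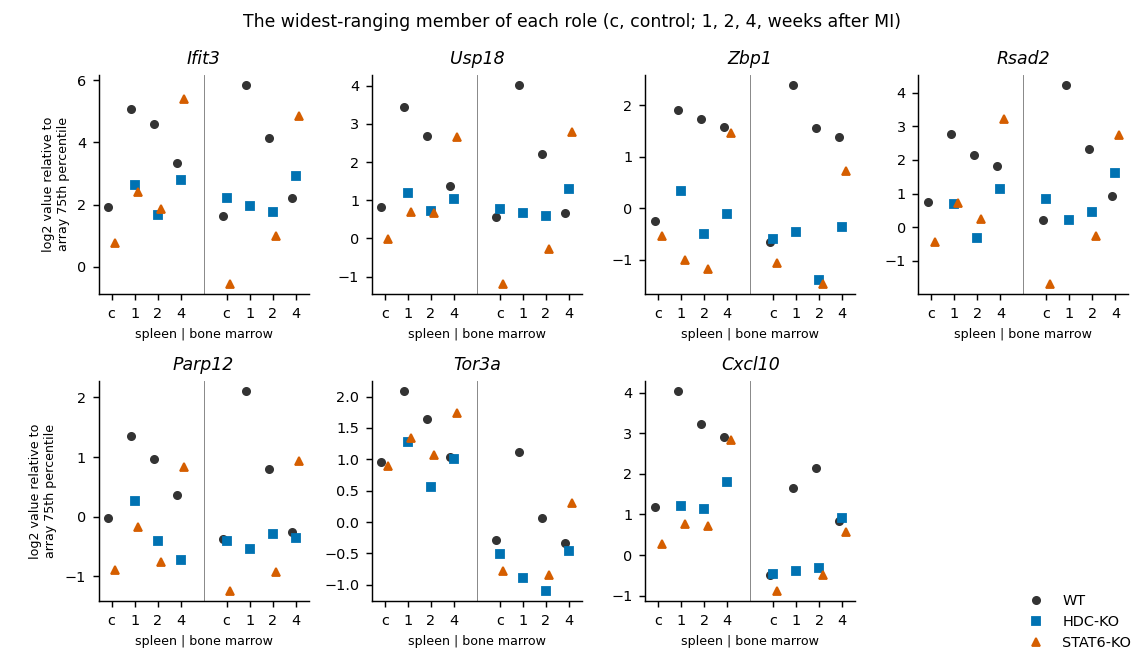
Values (log2, relative to the array's 75th percentile) of the widest-ranging member of each of 7 roles on the 22 arrays, with spleen left and bone marrow right of the line; each point is 1 array, c is control and 1, 2 and 4 are weeks after MI. WT at 1 week lies highest in bone marrow for every member shown but Cxcl10, which is highest at 2 weeks there (2.15), and STAT6-KO rises above its earlier values at 4 weeks.

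Differences between times compare 1 array with 1 array and carry no test, and the members were chosen with these differences known, so counts beyond 2-fold are set beside the share of all genes beyond 2-fold and are a description. All differences of a tissue and genotype from control share that control array. In WT spleen at 1 week after MI the median member was 1.29 higher than in control (2.44-fold), 38 of 38 were higher, and 24 were higher by 2-fold or more, against 6.76% of all genes. The largest difference was that of Ifit2 (4.16) and the smallest that of Slfn5 (0.15). At 2 weeks the median was 0.90 with 16 members 2-fold up (5.62% of all genes), and at 4 weeks 0.40 with 9 (3.5%), where Zbp1 led (1.82). WT bone marrow showed the same order with larger values at 1 week. There the median was 1.80 (3.49-fold), 33 members were 2-fold up (8.57%), and the differences ran from 0.56 for Trim25 to 4.54 for Ifit2. It was 1.09 at 2 weeks with 21 members (2.92%), and 0.34 at 4 weeks with 6 (8.59%). None was 2-fold lower than control in WT at 1, 2 or 4 weeks, against 10.7%, 8.95% and 2.2% of all genes in spleen and 5.55%, 2.28% and 2.76% in bone marrow.

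By role, the RNA-binding and RNA-acting effectors had the highest median at 1 week in WT, 2.12 in spleen and 2.94 in bone marrow, and the ISG15 system followed with 1.71 and 2.86. The PARP and DTX3L proteins had the lowest median in spleen (0.77, 1 of 4 beyond 2-fold), and in bone marrow 4 of 4 of them were 2-fold up with a median of 1.79. All 6 of the TRIM, nuclear and signalling proteins were 2-fold up in bone marrow and 2 of 6 in spleen. Tor3a was among them in both tissues. Its second probe read 0.43 in control and -0.46 at 1 week in WT spleen, and -1.11 and -0.12 in WT bone marrow. These counts by role stand beside the same 6.76% of all genes in spleen and 8.57% in bone marrow.

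Genes of other cells differed beside the members in WT bone marrow. The summed level of 6 B cell genes went there from 13.8 in control to 1.91 at 1 week on a linear scale where 1 is the array's 75th percentile, and that of 6 erythroid genes went from 51.4 to 6.44, both the lowest of the 22 arrays. In WT spleen the same sums went from 23.6 to 20.5 and from 62.3 to 29.4, while the 7 macrophage and monocyte genes went from 139 to 96.9 and the 6 neutrophil granule genes from 139 to 221. In WT bone marrow the neutrophil granule sum went from 244 to 345 and that of 5 mature neutrophil genes from 187 to 275. The 7 defining genes of CD11b+ cells went there from 290 to 441. The macrophage and monocyte sum went from 63.5 to 61.9, and the NK cell sum from 2.48 to 1.14. Their part in the member differences was not tested. In such bulk samples fewer cells of a type and less RNA per cell cannot be told apart.

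In HDC-KO cells the members were not higher at 1 or 2 weeks than in control bone marrow. In HDC-KO bone marrow the median member was -0.13 at 1 week, -0.17 at 2 weeks and 0.38 at 4 weeks relative to control, the last beside 0.34 in WT. None was 2-fold up at 1 or 2 weeks (4.85% and 3.09% of all genes), and 2 were at 4 weeks (5.58%), among them Cxcl10 (1.38). At 1 week 3 were 2-fold down (6.33%), with Slfn5 lowest (-1.40). At 2 weeks none was 2-fold down (2.92%), and at 4 weeks Trim21 was (-1.12, 4.31%). HDC-KO spleen had no usable control array, and relative to its own 1-week array the median was -0.36 at 2 weeks and -0.10 at 4 weeks. At 2 weeks none was 2-fold up and 1 was 2-fold down (5.71% and 2.69% of all genes), and at 4 weeks 1 was up and 1 down (14.8% and 4.43%).

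In STAT6-KO cells the higher values came late. In STAT6-KO spleen the median was 0.30 at both 1 and 2 weeks relative to control, with 3 members 2-fold up each time (2.16% and 1.13% of all genes), and 1.47 at 4 weeks with 27 (6.02%), led by Ifit3 (4.64). In STAT6-KO bone marrow it was 0.18 at 2 weeks with 2 members (2.53%) and 1.49 at 4 weeks with 26 (5.27%), again led by Ifit3 (5.42). None was 2-fold lower than control in STAT6-KO spleen at 1, 2 or 4 weeks (8.14%, 10.8% and 3.57% of all genes) or in bone marrow at 2 or 4 weeks (0.604% and 4.25%). Without the control arrays, the 4-week arrays exceeded the 2-week arrays by a median of 1.16 in spleen, where 22 members were 2-fold up against 17.6% of all genes, and by 1.44 in bone marrow, where 25 were against 2.5%. With the median of each array as scale in place of the 75th percentile, the spleen value was 0.69. The spleen values at 1 and 2 weeks against control were then 0.51 and 0.63. The bone marrow difference does not use the spleen array whose Stat6 signal lay within the WT range. Trim25 was the member that went the other way in all 4 of these comparisons with 4 weeks (-0.36 to -0.12). The B cell sum went from 69.5 at 2 weeks to 82.6 at 4 weeks in STAT6-KO spleen and from 7.03 to 16.3 in bone marrow, and the erythroid sum from 51.2 to 35.9 and from 11.6 to 26.4, and their part was not tested.

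Against WT at the same time, both knockouts were lower at 1 and 2 weeks where arrays allowed the comparison, which leaves out STAT6-KO bone marrow at 1 week. These differences share the WT arrays, and each again rests on 1 array against 1. Every HDC-KO array and no WT array had the Xist signal, so the HDC-KO genotype cannot be told apart from it here. In HDC-KO spleen the median member was -1.10 at 1 week, where 21 were 2-fold lower (4.34% of all genes), and -1.07 at 2 weeks, where 20 were (4%). At 4 weeks it was -0.52 with 5 (3.55%). In HDC-KO bone marrow it was 0.12 in control cells with none beyond 2-fold in either direction (0.971% of all genes down), -1.88 at 1 week with 33 (9%), -1.13 at 2 weeks with 22 (4.77%) and 0.09 at 4 weeks with 2 (6.34%). None was 2-fold higher than WT in spleen at 1, 2 or 4 weeks (3.81%, 4.41% and 6.25% of all genes) or in bone marrow from control to 4 weeks (1.17%, 4.76%, 3.89% and 2.64%). Rsad2 differed most at 1 week in bone marrow (-4.05) and Ifit2 in spleen (-3.65). Zbp1 was the lowest member at 4 weeks in both tissues (-1.70 in spleen and -1.75 in bone marrow).

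Genes of other cells differed in the same comparisons. In HDC-KO against WT bone marrow at 1 week the erythroid sum was 24.4 against 6.44 and the B cell sum 5.08 against 1.91. In STAT6-KO against WT control bone marrow the erythroid sum was 10.3 against 51.4, the B cell sum 4.60 against 13.8 and the neutrophil granule sum 442 against 244, and in control spleen the B cell sum was 47.1 against 23.6 and the NK cell sum 6.53 against 18.1. Their part in the member differences was not tested.

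STAT6-KO cells were already lower than WT in control cells, where both STAT6-KO arrays had the Xist signal and genotype cannot be told apart from it. In control cells the median was -0.55 in spleen with 7 members 2-fold lower (3.93%) and -0.49 in bone marrow with 9 (3.87%). In spleen it was -1.45 at 1 week with 31 (5.44%) and -1.12 at 2 weeks with 21 (7.04%), and in bone marrow -1.38 at 2 weeks with 28 (1.51%). None was 2-fold higher than WT in these comparisons (4.28%, 4.98% and 3.22% of all genes in spleen, 9.3% and 8.27% in bone marrow). At 4 weeks the sign turned in both tissues. The median was 0.51 in spleen with 10 members 2-fold higher (5%) and 0.72 in bone marrow with 14 (5.72%), and Ifit3 led both (2.08 and 2.64). Psmb8 (-0.82 in bone marrow) and Tap1 (-0.36 in spleen) were the lowest members at that time, both of antigen processing, and none was 2-fold lower in spleen (4.58%) or bone marrow (6.96%).

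The comparison of tissues is the only one with replication. The members were chosen with earlier results of these arrays known, tissue included, so its p-values are not independent of that choice. It set spleen against bone marrow in 10 pairs of 1 genotype and time, by limma over 27659 genes with Benjamini-Hochberg adjustment. With the pair as a block, 18 of the 38 members were higher in spleen (22.4% of all genes) and 5 lower (32.1%). With slide as a random block in place of the pair, 8 were higher (19.2%) and 2 lower (27.5%), and with neither 8 and 3 (21.4% and 31.7%). The labels do not say that spleen and bone marrow of a pair came from the same mice. No slide held both tissues, so tissue was compared between slides, and the pair as a block does not take out a slide difference. All 3 fits were passed by 10 members, 8 of them higher in spleen against 19.2% of all genes, which is near the background, and 2 lower against 27.3%. The 4 pairs that held an array with a Xist signal were also left out, a choice made after the data were seen. Then 13 members passed the fit with the pair, 11 higher in spleen (16.7% of all genes) and 2 lower (25.8%).

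Ifi44 differed most. Its spleen values ran from 0.89 to 3.61 and its bone marrow values from -0.51 to 2.52, so the tissues overlapped as groups while spleen was higher in all 10 pairs. The difference was 1.62 ± 0.50 (SD, n = 10 pairs), with adjusted p of 5.55e-06, 0.00147 and 0.00491 from the limma fits with the pair, with neither and with slide. Cxcl10 was higher in spleen by 1.58 ± 0.52 (SD, n = 10 pairs) (adjusted p 8.4e-06, 0.00842 and 0.0219 in the same fits by limma). Tor3a was higher by 1.55 ± 0.34 (SD, n = 10 pairs) (limma, 1.01e-06, 2.2e-05 and 0.000127), but its second probe gave 0.68 ± 1.33 (SD, n = 10 pairs) and was higher in spleen in 5 of 10 pairs. Bst2, Ifi204 and Lgals3bp were higher by 1.40 ± 0.46 (SD, n = 10 pairs), 1.39 ± 0.49 (SD, n = 10 pairs) and 1.21 ± 0.47 (SD, n = 10 pairs). The second Lgals3bp probe gave 0.34 ± 0.58 (SD, n = 10 pairs), higher in spleen in 7 of 10 pairs. Parp14 and Nmi were higher by 0.80 ± 0.26 (SD, n = 10 pairs) and 0.59 ± 0.20 (SD, n = 10 pairs). The 2 that were lower in spleen were Samd9l, by -0.99 ± 0.37 (SD, n = 10 pairs) (limma, adjusted p 4.24e-05, 5.72e-05 and 0.000354), and Sp100, by -0.77 ± 0.53 (SD, n = 10 pairs) (limma, 0.0018, 0.00982 and 0.0281). The second Samd9l probe gave -1.20 ± 0.51 (SD, n = 10 pairs), and the other 7 of the 10 had 1 probe.

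Of the members with wide ranges over the conditions, Cxcl10 was among these and Ifit1, Rsad2 and Usp18 were not. The tissue difference was 0.14 ± 0.60 (SD, n = 10 pairs) for Ifit1, 0.12 ± 0.84 (SD, n = 10 pairs) for Rsad2 and 0.33 ± 0.55 (SD, n = 10 pairs) for Usp18, none of which passed any of the 3 fits. Isg15, 0.91 ± 0.64 (SD, n = 10 pairs), passed with the pair alone (adjusted p 0.00161, 0.087 and 0.152 by limma). The median difference over the members was 0.34 ± 0.29 (SD, n = 10 pairs), was above 0 in 9 of 10 pairs, and was lowest in the WT pair at 1 week (-0.26), beside a median of -0.17 over all genes in the fit with the pair. With the pair as a block, all 7 macrophage and monocyte genes, 6 of 6 B cell genes and 5 of 6 NK cell genes were higher in spleen, and 6 of 6 neutrophil granule genes were lower. The part of these cells in the member differences was not tested.

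**Figure D4:**
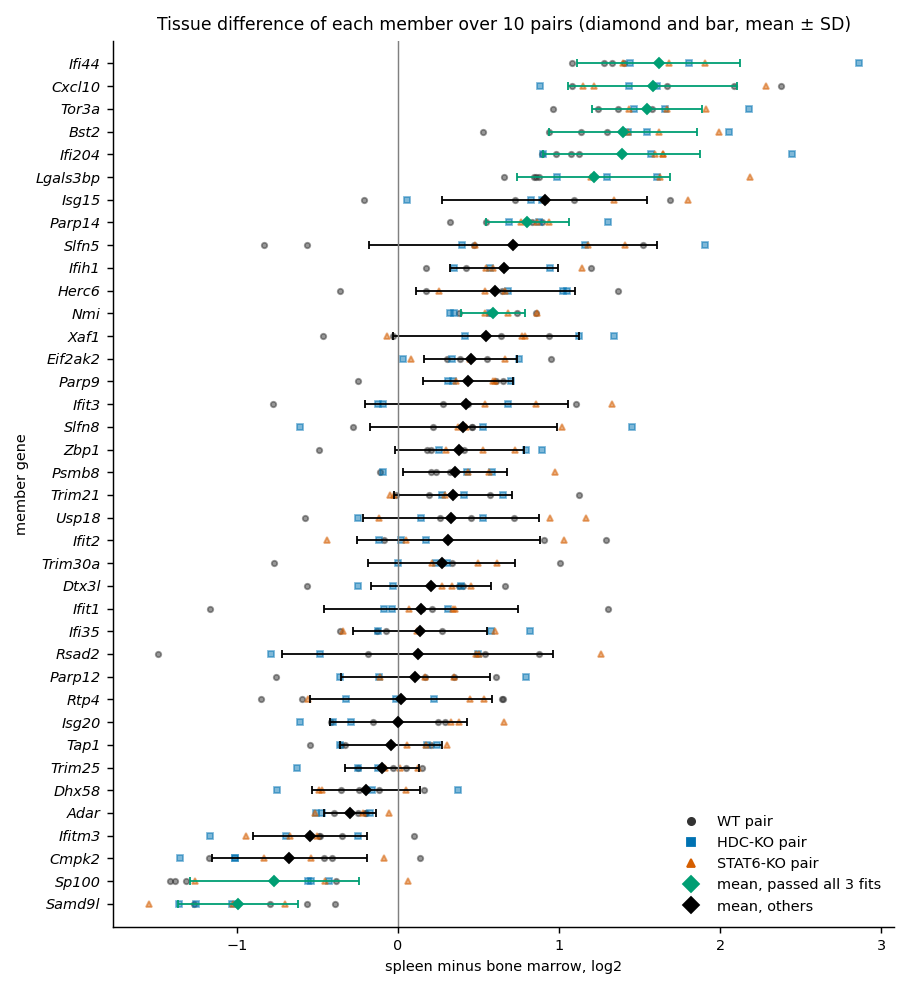
Spleen minus bone marrow (log2) for each of the 38 members, with 1 small point per pair of arrays and the mean ± SD over 10 pairs as a diamond and bar, green where the member passed all 3 limma fits. Ifi44, Cxcl10, Tor3a, Bst2, Ifi204 and Lgals3bp lie more than 1 above 0, Samd9l and Sp100 lie below it, and Ifit1, Rsad2 and Usp18 lie within their SD of 0.

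The rest of the pathway was described from fixed lists, at 1 week in WT and at 4 weeks in STAT6-KO cells. Beside the counts beyond 2-fold stand 6.76% of all genes in WT spleen, 8.57% in WT bone marrow, and 6.02% and 5.27% in the STAT6-KO tissues. Among 11 kinases and factors below the receptors, 2 were 2-fold up in WT spleen at 1 week and 4 in WT bone marrow, and the median was 0.19 and 0.54. Irf7, the factor that amplifies type I interferon, led each time and read -0.32 in spleen control cells and 2.09, 1.12 and 0.42 at 1, 2 and 4 weeks after MI, with -0.72, 2.32, 1.04 and 0.34 at the same points in bone marrow in WT cells. For Irf7, HDC-KO arrays gave -0.43, -1.16 and -0.29 in spleen at 1, 2 and 4 weeks and -1.01, -1.25, -0.95 and 0.07 in bone marrow from control to 4 weeks, and STAT6-KO arrays -1.24, 2.18, -1.30 and 2.62 in spleen from control to 4 weeks and -2.18, -1.44 and 1.22 in bone marrow at control, 2 and 4 weeks. In STAT6-KO spleen at 1 week Irf7 was high (2.18) while the members there were not (Ifit1 1.62, Usp18 0.70). The ligands measured on both arrays, 11 of 19 listed, had medians of -0.46 and 0.24 in WT spleen and bone marrow at 1 week, and Ifnb1, the gene of interferon-beta, was well above background on 1 of 22 arrays. Ifng, the gene of interferon-gamma, differed from control by 2.13 in STAT6-KO spleen and 3.22 in STAT6-KO bone marrow at 4 weeks, and from 2 weeks by 1.63 and 2.55. In WT spleen it differed from control by -1.27, 1.21 and 1.49 at 1, 2 and 4 weeks, and it was highest in HDC-KO spleen at 4 weeks (2.05), where the members were not. The NK cell sum in STAT6-KO spleen went from 6.53 in control to 11.6 at 2 weeks and 20.7 at 4 weeks, and its part was not tested. Of the 6 receptors 1 was 2-fold up in WT spleen at 1 week (Ifnlr1, 1.74) and none in WT bone marrow.

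The GTPases of the Gbp and Irg families, which attack vacuoles of intracellular pathogens, were 2-fold higher in 14 of 15 cases in WT spleen and 13 of 15 in WT bone marrow at 1 week, with medians of 2.11 and 2.77. In STAT6-KO cells at 4 weeks 10 of 15 did so in spleen and 11 of 15 in bone marrow relative to control, with medians of 1.23 and 1.81. Against 2 weeks 8 and 7 of 15 did, beside 17.6% and 2.5% of all genes, with medians of 1.02 and 0.97. The products of the Oas genes activate RNase L. In WT spleen the summed level of 8 Oas genes went from 36.5 in control to 111 at 1 week. In WT bone marrow it went from 40.1 to 185. In STAT6-KO cells at 4 weeks 7 of 8 in spleen and 8 of 8 in bone marrow were 2-fold up against control, with medians of 2.21 and 2.37. Against 2 weeks 7 and 8 of 8 were, beside 17.6% and 2.5% of all genes, with medians of 1.63 and 1.97. Oas1a lay between -7.00 and -3.39 on the 8 WT arrays and between 3.18 and 5.58 on all 14 knockout arrays, a pattern none of the members had. Its lowest WT value was below the lowest signal well above background on any WT array (-6.86), so it is not a measured level. Oas1a had 2 probes, and the probe with the highest mean is given. Oasl2 lay between 3.33 and 4.59 on the 7 HDC-KO arrays, where the members stayed low, and on the STAT6-KO arrays went from at most 1.19 before 4 weeks to 4.69 and 4.70.

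**Figure D5:**
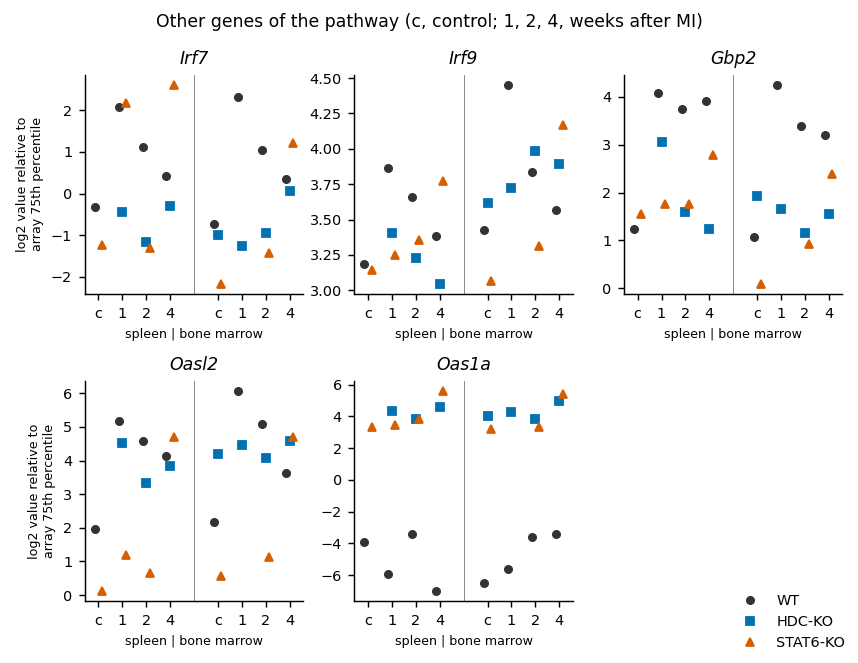
Values (log2, relative to the array's 75th percentile) of 5 other pathway genes on the 22 arrays, drawn as for the members. Irf7, Irf9 and Gbp2 are high in WT at 1 week, Oasl2 is also high on all HDC-KO arrays (3.33 to 4.59), and Oas1a separates WT (-7.00 to -3.39) from both knockouts (3.18 to 5.58).

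Of 14043 other genes with a symbol that were well above background on every array, the 10 most like the members' level had Pearson correlations of 0.91 to 0.96 over the 22 arrays. They were Trafd1 (0.96), Ifit3b (0.95), Gbp9 (0.94), Irgm1 (0.93), Igtp (0.92), Ifi27l2b (0.92), Stat2 (0.92), Fap (0.92), Gvin1 (0.91) and Trex1 (0.91). Ifit3b, a near copy of Ifit3, ranged from -0.69 to 5.07, and the probes of the pair may read both. Ifi27l2b and Fap had their highest value in STAT6-KO spleen at 4 weeks, Irgm1 in WT spleen at 1 week and the other 7 in WT bone marrow at 1 week.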

How the data were processed

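RNA of CD11b+ cells was hybridised to one-colour Agilent mouse arrays, 1 array per genotype, tissue and time. The authors deposited scanner output of Agilent Feature Extraction 11.0.1.1 (per the file headers), whose processed signal is an intensity already corrected for background. The submitters' processing notes also name GCRMA, but the deposited tables hold linear signals for each spot. Of the 24 arrays, 2 were left out as incomplete.

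Control spots and 3055 spots marked as outliers were left out, spots of a probe were averaged, and the log2 of the deposited signal minus the array's 75th percentile was taken. That percentile was a signal of 928 to 2461, and 70.4 to 79.8% of spots were well above background. Probes were named by RefSeq accession (27234 of 39429 probes, 20659 genes), and the probe with the highest mean stood for a gene. Members were ranked within each role by their range, and the 2 widest and the narrowest are given in most detail. The members and all lists were chosen with earlier results of these data known.

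With 1 array per condition, times and genotypes have no test. Tissues were compared over 10 pairs with limma 3.58.1 in R 4.3.3, with the pair as a block, over genes well above background on at least 2 arrays, with Benjamini-Hochberg adjustment at 0.05. The p-values measure the spread between pools of unlike genotype and time. Deviations from the tissue means within a pair correlated at -0.11 to 0.40 over 20511 genes, above 0.1 in 8 of 10 pairs. The correlation was best with the array of the own pair in only 3 of 10. Alternatives were other scalings, quantile normalization, normexp (offset 50, on the median spot signal), other filters and probe rules, no block, slide as a random block, the methods' Student test and leaving out each pair. The fit with the pair as a block was tested on simulated data that held no slide effect. Plots used Python 3.11.15 with matplotlib 3.10.9.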

Additional observations from a re-analysis of the deposited data

Results flagged for a closer look

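In the differences between spleen and bone marrow, 39 series of 10 pairs were examined for a single pair far from the others, and 5 had one. For a single series chance gives about 1 in 20. The series share the same 10 pairs and the members vary together, so the 5 cannot be compared with that rate. Trim25 was lowest in the HDC-KO pair at 2 weeks (-0.623, with the next pair at -0.25). Zbp1 and Parp9 were lowest in the WT pair at 1 week (-0.491 and -0.25, with the next at 0.178 and 0.312), the pair with the lowest median of the members. Ifi204 and Ifi44 were highest in the HDC-KO pair at 1 week (2.45 and 2.86, with the next at 1.64 and 1.9).

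The median difference of STAT6-KO from WT had one sign early and the other late. It was -0.55 in spleen and -0.49 in bone marrow in control cells and -1.12 and -1.38 at 2 weeks, against 0.506 and 0.722 at 4 weeks. The difference between the times was not tested, since each value compares 1 array with 1 array.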

How the results depend on the processing

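With the pair as a block, 23 of the 38 members differed between tissues, beside 54.5% of all genes. The number was 11 with no replicate block (53.1%) and 10 with slide as a random block (46.7%). By the methods' Student test with its 2-fold threshold it was 6 (22.5%), and without the pairs with a Xist signal 13 (42.5%). It lay between 20 and 28 when 1 pair was left out (50.5% to 54.5%). Same-condition spleen and bone marrow arrays are not known to share mice, so a call lost without the pairing is not read as a smaller effect. With the median of the array as scale, the median member was -0.50 for HDC-KO spleen at 4 weeks against 1 week, 0.51 and 0.63 for STAT6-KO spleen at 1 and 2 weeks, 0.69 for STAT6-KO spleen at 4 against 2 weeks, 0.11 for WT bone marrow at 4 weeks, -0.027 for HDC-KO bone marrow at 1 week, 0.052 for STAT6-KO bone marrow at 2 weeks, and 0.060 and 0.19 for HDC-KO against WT bone marrow in control cells and at 4 weeks. WT bone marrow at 4 weeks was 0.22 with quantile normalization and with normexp, and HDC-KO spleen at 4 weeks against 1 week was -0.019 when scaled on probes well above background everywhere. The cause was not tested. Of the other values, 82 knockout and 98 time medians moved little. Among members that passed no tissue fit, the sign turned for Isg20 (-0.031 with the mean over probes, and -0.069 to 0.072 with a pair left out), Trim25 (0.039, quantile), Rsad2 (-0.0042 to 0.30 with a pair left out), Rtp4 (-0.0014 with normexp, -0.042 without the Xist pairs, -0.054 to 0.11 with a pair left out) and Tap1 (0.029 when scaled on probes well above background everywhere, -0.081 to 0.014 with a pair left out). With 1 array per condition, their number limits the precision.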
